A study of Rattus norvegicus with 70 samples.

Results

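DNA methylation near transcript starts was compared between livers of rats given thioacetamide and livers of rats given the vehicle, at 2 times of a liver tumour promotion protocol. The comparison used 20 of the 70 libraries of the study, chosen by their labels: 10 thioacetamide and 10 vehicle libraries, 5 of each at each time. Thioacetamide rats received 45 mg/kg thioacetamide and then 500 ppm phenobarbital, a tumour promoter, in the drinking water. Vehicle rats received 0.5% methylcellulose and then the same phenobarbital, so both groups carried the promoter and the groups differ in the initiating agent. All were Crj:CD(SD)IGS rats, and the labels used here give neither sex nor age. The initiator was given for 1 to 2 weeks and withdrawn for 2 weeks before phenobarbital began. The first time is the partial hepatectomy after 1 week of phenobarbital, and the second is terminal euthanasia after 6 weeks. Livers at the second time had therefore been through this surgery in both groups, and the labels do not say whether libraries with the same number at the 2 times came from the same rat. Agreement between the times may thus not rest on separate rats.

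Thioacetamide is a liver toxicant and a rat liver carcinogen. The liver converts it to reactive S-oxides through Cyp2e1 and flavin-containing monooxygenases, and repeated dosing injures the cells around the central veins, with fibrosis and growth of bile duct cells. In the assay, fragments of liver DNA that carry methylated CpG sites are pulled down with a methyl-CpG binding domain protein and sequenced, so a higher signal means more captured methylated DNA. The signal depends on how many CpG sites a region holds as well as on the share that is methylated. Each value is for a region of 5625 bp around a transcript start, scaled by the authors to library size. Whole liver was used, and a change in the share of a cell type cannot be told apart from a change in methylation within a cell.

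Of 17174 regions, 15809 were tested at partial hepatectomy and 16008 at terminal euthanasia, and 15740 were tested at both. A difference is the mean log2(signal + 1) of thioacetamide libraries minus that of vehicle libraries. A region passed where its limma p-value, adjusted by Benjamini and Hochberg over all tested regions, was under 0.05. One region met that threshold, that of Klhdc9, a gene named for its kelch repeats, and it did so for the mean of both times. At an unadjusted p under 0.05, 23 regions differed in the same direction at both times. The RefSeq promoters (GRCr8, 250 bases before to 50 after the start, transcribed strand) of 4 of these 23 are shown because they span the range of CpG content of the set and carry its most stable differences, with CpG sites in capitals. Klhdc9 (chr13:86325604-86325903, minus strand) has 14 CpG sites, Cyp4f5 (chr7:12194387-12194686, plus strand) has 5, Rwdd3 (chr2:211933543-211933842, minus strand) has 22, and Nat15, now Naa60 (chr10:12149004-12149303, minus strand), has 33.
Klhdc9: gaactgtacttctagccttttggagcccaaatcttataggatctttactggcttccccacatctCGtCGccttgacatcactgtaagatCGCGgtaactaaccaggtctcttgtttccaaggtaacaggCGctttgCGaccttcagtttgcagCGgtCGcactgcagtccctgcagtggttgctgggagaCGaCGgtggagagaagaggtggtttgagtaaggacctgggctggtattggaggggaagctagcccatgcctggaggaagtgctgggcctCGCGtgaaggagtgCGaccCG
Cyp4f5: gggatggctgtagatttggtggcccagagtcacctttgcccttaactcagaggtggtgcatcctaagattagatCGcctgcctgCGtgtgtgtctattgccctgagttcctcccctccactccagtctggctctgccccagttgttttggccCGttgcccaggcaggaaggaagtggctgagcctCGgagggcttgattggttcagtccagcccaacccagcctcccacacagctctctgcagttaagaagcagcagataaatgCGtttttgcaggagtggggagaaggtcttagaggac
Rwdd3: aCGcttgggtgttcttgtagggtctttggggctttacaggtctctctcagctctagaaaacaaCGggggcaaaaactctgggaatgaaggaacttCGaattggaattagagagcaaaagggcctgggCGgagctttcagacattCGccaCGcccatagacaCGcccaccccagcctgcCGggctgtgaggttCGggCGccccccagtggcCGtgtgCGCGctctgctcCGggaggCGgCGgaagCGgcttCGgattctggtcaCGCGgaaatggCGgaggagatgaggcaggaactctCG
Nat15: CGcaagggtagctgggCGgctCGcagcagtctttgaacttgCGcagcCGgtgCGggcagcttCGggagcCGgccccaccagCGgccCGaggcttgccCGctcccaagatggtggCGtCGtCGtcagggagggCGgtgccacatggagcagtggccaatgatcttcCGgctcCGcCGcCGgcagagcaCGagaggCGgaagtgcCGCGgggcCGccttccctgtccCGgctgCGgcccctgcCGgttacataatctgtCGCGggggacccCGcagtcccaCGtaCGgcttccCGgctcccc
Promoters were matched by gene symbol for 16 of the 23 regions. A matched promoter may not belong to the measured region, as for Dpp3, whose RefSeq promoter lies on another chromosome than its region. Their median was 18 CpG sites, against 18 over the 9650 promoters of tested genes, and 25% held fewer than 10 sites, against 29.8%. In CpG content the matched promoters were therefore like those of the other tested genes.

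The 20 libraries had scaling totals of 42.1 to 54.3 M reads, of which 0.933 to 1.64 M lay in the regions, with a median of 41 to 65 reads a region. Thioacetamide replicate 5 at each time had the highest share of reads in the regions, 3.44 and 3.45%, against 2.14 to 3.11% in the others. Both of these libraries come from the last block of library numbers, 61 to 70, which holds no vehicle library. At terminal euthanasia, thioacetamide replicate 4 and vehicle replicate 5 stood apart, with 0.687% and 0.739% of regions without a read, against 1.60 to 4.79% in the other 18 libraries. These 2 are called libraries with few empty regions, as are those of other conditions with under 1% of regions without a read. Fits without them left out every such library of the study. At partial hepatectomy those left out were all of other conditions, which share the estimate of spread in the fit. Some counts of regions are also given without the libraries with few empty regions or without thioacetamide replicate 5. The regions that left the agreeing set without thioacetamide replicate 5 are given at the end of their description.

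At partial hepatectomy no region passed among 15809 (0%), and the smallest adjusted p from limma was 0.404. At an unadjusted p under 0.05 there were 702 regions (4.44%), with 644 higher (4.07%) and 58 lower (0.367%) in thioacetamide livers. The median difference over all regions was 0.085 on the log2 scale, and 66.8% of regions had a higher mean in thioacetamide livers. At terminal euthanasia no region passed among 16008 (0%), and the smallest adjusted p from limma was 1.00. The unadjusted list held 330 regions (2.06%), 213 higher (1.33%) and 117 lower (0.731%), with a median difference of 0.036. Both unadjusted shares are below 5%, the share this threshold gives where no region differs.

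The excess of higher over lower regions depended on scaling and on replicate 5. With quantile normalization the split at an unadjusted p under 0.05 was 281 higher and 240 lower at partial hepatectomy, and 453 higher and 417 lower at terminal euthanasia. With the tested regions rescaled to the same sum it was 357 and 178, and 267 and 223. Without thioacetamide replicate 5 it was 397 and 132 at partial hepatectomy, and it turned round to 80 higher and 293 lower at terminal euthanasia. A general gain or loss of methylation cannot be read from these libraries, and only single regions are described from here on.

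The differences at the 2 times were close to unrelated across regions. Over the 15740 regions tested at both, the Pearson correlation of the 2 differences was 0.062 and the Spearman correlation 0.059. These are across regions of the same libraries, and regions are not independent replicates. The sign was the same at 54.6% of regions. It was the same for 65.1% of the regions under 0.05 at partial hepatectomy and for 59.3% of those under 0.05 at terminal euthanasia. The 23 regions on both lists with the same direction (0.146% of 15740) were 3.28% of the 702 regions of the first list and 7.03% of the 327 regions of the second that were tested at both times. Another 4 regions (0.0254%) were on both lists in opposite directions. Of the 23, 22 were higher in thioacetamide livers and 1, Ifna1, was lower. Libraries of 1 condition with the same number at the 2 times were also compared, as deviations from their group means. Over the 200 regions most variable within groups, their median correlation was 0.214 in 35 pairs, against -0.057 in 140 other pairs. Over all 15740 regions it was 0.085, against -0.015. Whether such libraries came from the same rat was not tested.

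**Figure D1:**
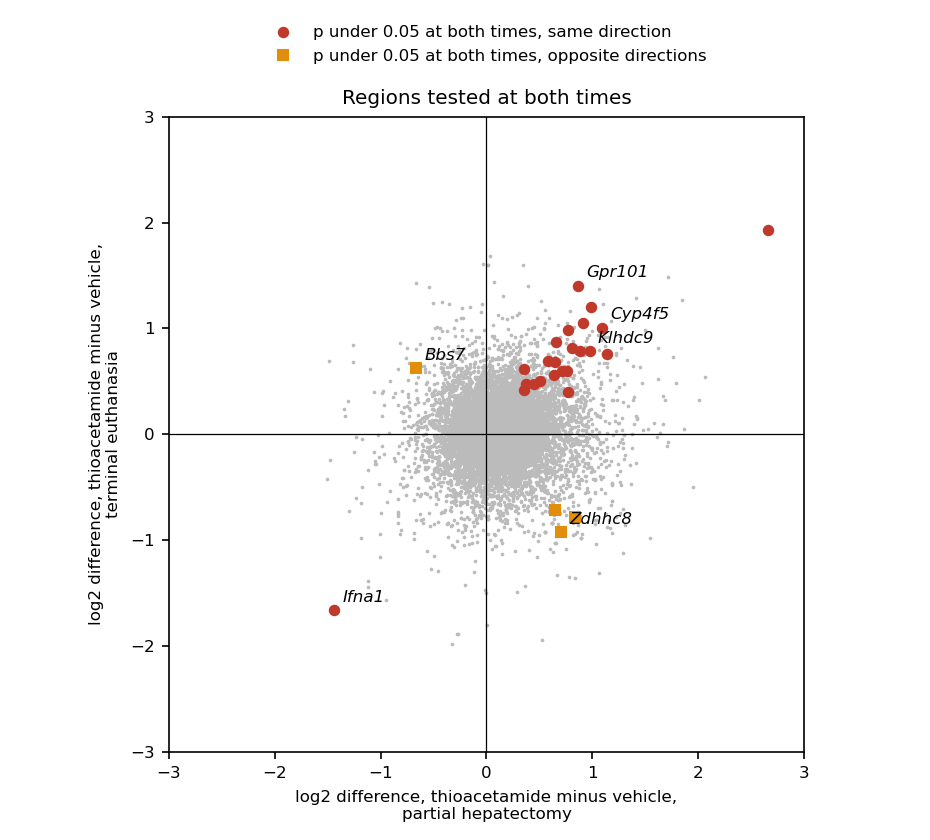
Log2 difference, thioacetamide minus vehicle, at partial hepatectomy (horizontal axis) and at terminal euthanasia (vertical axis) for the 15740 regions tested at both times. The 23 regions under an unadjusted p of 0.05 at both times in the same direction and the 4 in opposite directions are marked, and the cloud as a whole has almost no slope (Pearson 0.062).

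Averaging the log2 values of the 2 times within condition and replicate number gave 1 region past the threshold of 15740 (0.00635%). The unadjusted list held 506 regions (3.21%), 438 higher (2.78%) and 68 lower (0.432%), with a median difference of 0.061. Under quantile normalization that split was 384 higher and 341 lower. Without thioacetamide replicate 5 it was 193 higher and 222 lower. The number of regions where no thioacetamide library overlapped a vehicle library was 149 at partial hepatectomy (0.947%) and 43 at terminal euthanasia (0.273%), and no region (0%) had this at both times.

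Klhdc9 was the region that passed. The deposited tables place it on chromosome 13 from 87265020 to 87270645, minus strand, and no source used here names the genome build of those coordinates. At partial hepatectomy its signal was 94.9, 149, 163, 140 and 161 in the thioacetamide livers and 47.4, 94.5, 73.1, 97.1 and 53.6 in the vehicle livers. At terminal euthanasia it was 146, 153, 131, 97.0 and 219 in the thioacetamide livers and 89.2, 88.0, 112, 77.2 and 58.4 in the vehicle livers. At each time 4 of the 5 thioacetamide libraries lay above every vehicle library, and the lowest thioacetamide library lay within the vehicle range. The means were 142 ± 27.7 in thioacetamide and 73.1 ± 22.8 in vehicle livers at partial hepatectomy (SD, n = 5 each). At terminal euthanasia they were 149 ± 44.4 in thioacetamide and 84.9 ± 19.4 in vehicle livers (SD, n = 5 each). The recovered reads behind these values were 86 to 208 in thioacetamide and 45 to 110 in vehicle libraries.

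The Klhdc9 difference for the mean of both times was 0.88 ± 0.15 (SE) on the log2 scale, or 1.84-fold, with an adjusted p of 0.00534 from limma. Within each time it did not pass. At partial hepatectomy it was 0.98 ± 0.22 (SE), with an unadjusted p of 3.81e-05 and an adjusted p of 0.404 from limma. At terminal euthanasia it was 0.79 ± 0.20 (SE), with an unadjusted p of 0.000261 and an adjusted p of 1.00. The 2 differences were not distinguishable from each other (-0.19 ± 0.32, SE, unadjusted p = 0.555 from limma).

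The direction at Klhdc9 was the same in every alternative run, but the call was not. The adjusted p for the mean of both times from limma was 0.105 without thioacetamide replicate 5 (difference 0.78), 0.062 without vehicle replicate 1 (0.82) and 0.131 without vehicle replicate 5 (0.77). It was 0.117 without every library with few empty regions, of any condition (0.84), and 0.116 without every library of the last block (0.78). In the first block, with 2 libraries a side, the difference was 0.82 at partial hepatectomy and 0.75 at terminal euthanasia. In the third block, with 2 thioacetamide libraries and 1 vehicle library, it was 1.48 and 0.94. The fourth block holds no vehicle library and the second no thioacetamide library, so neither gives a value.

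Set among all 7 conditions of the study, thioacetamide had the highest mean Klhdc9 signal at both times. Methapyrilene, another rat liver carcinogen, came next, with means of 103 ± 23.4 at partial hepatectomy and 105 ± 11.4 at terminal euthanasia (SD, n = 5 each). The high dose of diethylnitrosamine averaged 94.3 ± 23.9 and 82.0 ± 11.8, the low dose 68.5 ± 9.39 and 80.6 ± 9.92, and acetaminophen 69.7 ± 18.5 and 75.3 ± 21.2 at the 2 times (SD, n = 5 each). Rats given methylcellulose and plain water had 32.6 to 80.0 at partial hepatectomy and 57.8 to 108 at terminal euthanasia, which overlaps the range of the phenobarbital vehicle at both times. Each condition overlapped the next in this order, thioacetamide and methapyrilene included.

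No region near Klhdc9 had a difference as large as its own. In the 22 other regions within 250 kb it ranged from -0.21 to 0.63 at partial hepatectomy and from -0.70 to 0.33 at terminal euthanasia. Of the 22, 2 had an unadjusted p under 0.05 from limma at partial hepatectomy, Apoa2, an apolipoprotein of HDL (0.55), and Ppox, an enzyme of haem synthesis (0.44), and 0 had one at terminal euthanasia. The region of Pvrl4, a nectin adhesion molecule, ends 830 bp from the Klhdc9 region. There the difference was -0.03 at partial hepatectomy and 0.00 at terminal euthanasia.

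**Figure D2:**
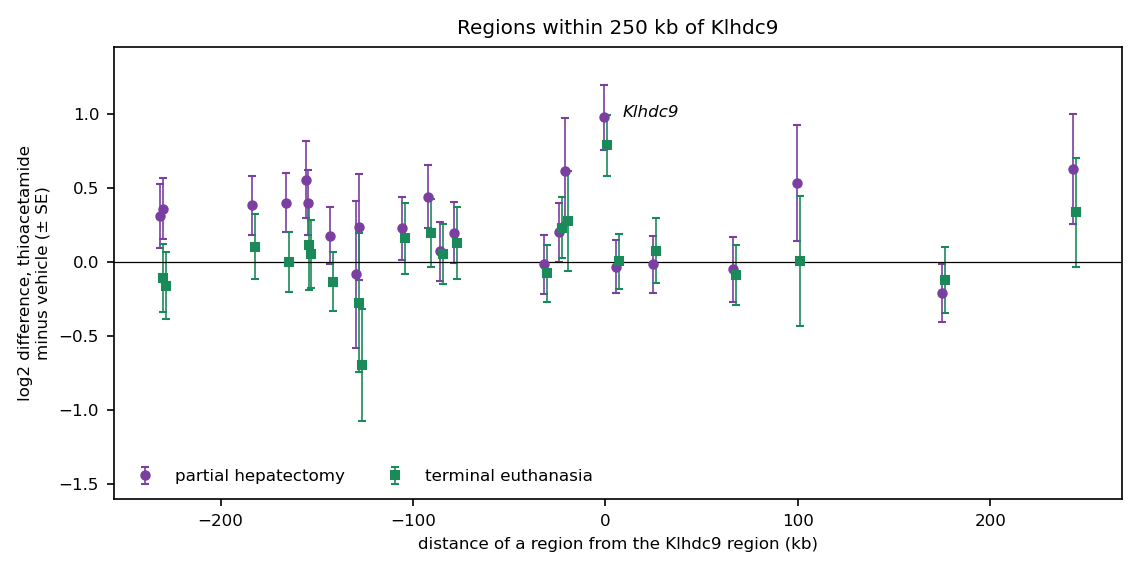
Log2 difference, thioacetamide minus vehicle (vertical axis, ± SE), of the Klhdc9 region and of the 22 regions within 250 kb of it, by distance in kb (horizontal axis), at partial hepatectomy (circles) and terminal euthanasia (squares). Klhdc9 at 0 kb has 0.98 and 0.79, and the highest neighbour has 0.63.

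The other 22 regions that agreed between the times did not pass at either time or for the mean, and their values are given as such. With Klhdc9 they lie on 12 chromosomes, counting unplaced sequence as 1. Their levels were low: the median vehicle signal of the 23 was 31.2, against 59 over all tested regions. At partial hepatectomy 2 of the 23 had no overlap between groups (Nat15 and Ccnb2), against 0.947% of all regions tested at both times. At terminal euthanasia 5 had none (Mmp2, Bhmt2, LOC689081 and Gpr101 among them), against 0.273%. The 23 were chosen for a low p on these same values, which favours separate groups. Within the first block of library numbers 19 of 23 had the same direction at both times. Within the third block, which holds 1 vehicle library at each time, 15 did. The libraries of these blocks were among those used to choose the 23, so these counts are no separate evidence.

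Mmp2, a gelatinase that degrades basement membrane collagen and is made by activated stellate cells, was the matrix gene of the set. At partial hepatectomy its signal was 51.9, 64.5, 32.7, 36.9 and 41.1 in thioacetamide and 26.3, 14.4, 33.9, 29.4 and 24.4 in vehicle livers. Terminal euthanasia values were 33.2, 37.3, 45.7, 49.9 and 49.4 in thioacetamide and 22.8, 11.9, 31.4, 26.5 and 33.2 in vehicle livers. The groups overlapped by 1 vehicle library at the first time and were separate, by a narrow margin, at the second. The differences were 0.80 ± 0.27 and 0.81 ± 0.29 (SE), with an adjusted p of 0.830 from limma for the mean. Without vehicle replicate 2, the lowest library at both times, Mmp2 was no longer under an unadjusted 0.05 at both times.

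Ccnb2, a mitotic cyclin, was the cell cycle gene. At partial hepatectomy its signal was 35.3, 33.8, 39.6, 35.9 and 81.1 in thioacetamide and 30.5, 14.4, 24.4, 26.2 and 32 in vehicle livers. Replicate 5 stood far above the other thioacetamide libraries, and the remaining 4 lay just above the vehicle range. The means at terminal euthanasia were 67.4 ± 18.2 in thioacetamide and 45.1 ± 15.7 in vehicle livers (SD, n = 5 each).

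Ube2g2 and Rwdd3 act in the conjugation of ubiquitin or a ubiquitin-like protein, and Psmd14 acts in the removal of ubiquitin. Rwdd3 promotes SUMO conjugation. Its signal at partial hepatectomy was 156, 142, 193, 123 and 137 in thioacetamide and 98.0, 134, 96.4, 94.9 and 125 in vehicle livers, and at terminal euthanasia 146, 120, 173, 102 and 185 in thioacetamide and 96.2, 92.7, 105, 116 and 97.3 in vehicle livers. The groups overlapped at both times, and the differences were 0.45 ± 0.17 and 0.48 ± 0.19 (SE). Psmd14, a deubiquitinase of the proteasome lid, had differences of 0.66 and 0.87. Ube2g2, a conjugating enzyme of protein degradation at the endoplasmic reticulum, had 0.65 and 0.68.

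Cyp4f5, a fatty acid hydroxylase of the cytochrome P450 family, was under an unadjusted 0.05 at both times in all 19 alternatives, as Klhdc9 was. Its signal at partial hepatectomy was 39.7, 64.5, 48.6, 39.6 and 106 in thioacetamide and 35.8, 11.1, 76.3, 16.4 and 20.7 in vehicle livers. Terminal euthanasia gave 45.1, 41.7, 50.6, 54.7 and 124 in thioacetamide and 34.7, 10.7, 49.7, 28.8 and 33.2 in vehicle livers. Replicate 5 had the highest value of both times, and vehicle replicate 3 lay within the thioacetamide range. The differences were 1.09 ± 0.34 and 1.01 ± 0.34 (SE). Cyp4f5 has close relatives in the rat genome, and no source used here says how reads shared between copies were assigned, so its level is uncertain.

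Bhmt2, a homocysteine methyltransferase, had means of 173 ± 44.3 in thioacetamide and 132 ± 11.8 in vehicle livers at partial hepatectomy, and of 158 ± 35 in thioacetamide and 117 ± 18.4 in vehicle livers at terminal euthanasia (SD, n = 5 each). Bcmo1, which cleaves beta-carotene to retinal, had means of 152 ± 19 in thioacetamide and 117 ± 15 in vehicle livers at the first time, and of 141 ± 32.8 in thioacetamide and 103 ± 30.2 in vehicle livers at the second (SD, n = 5 each). The differences were small, 0.36 and 0.41 for Bhmt2 and 0.38 and 0.47 for Bcmo1. Without thioacetamide replicate 5 both regions missed an unadjusted 0.05 at both times. A2ld1, which acts on crosslinks left by protein breakdown, had 0.58 and 0.69. Dpp3, a dipeptidyl peptidase, had 0.89 and 0.79, but the deposited tables place its region on chromosome 3, while RefSeq has the gene on chromosome 1, so the link between region and gene is uncertain. Nat15, an N-terminal acetyltransferase, had 0.77 at partial hepatectomy with no overlap between groups, and 0.40 at terminal euthanasia.

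Among immune genes, Myd88, the adaptor of Toll-like receptors, had means of 50.1 ± 14.3 in thioacetamide and 32 ± 13.4 in vehicle livers at partial hepatectomy, and of 46.3 ± 14.9 in thioacetamide and 30.5 ± 9.98 in vehicle livers at terminal euthanasia (SD, n = 5 each). Ptger4, a receptor for prostaglandin E2, had differences of 0.64 and 0.56. Ifna1, an interferon alpha gene, was the region with a lower signal at both times. Its signal was 21, 42, 3.96, 23 and 2.11 in thioacetamide and 50.6, 20.003, 53, 70.9 and 11.3 in vehicle livers at partial hepatectomy. At terminal euthanasia it was 27.3, 7.68, 0.01, 1.92 and 10.5 in thioacetamide and 50.6, 9.51, 26.4, 25.4 and 5.72 in vehicle livers, where 0.01 stands for no read. The spread within each group was as wide as the difference between them. Interferon alpha genes form a cluster of near copies, and this value is uncertain for the same reason as that of Cyp4f5. RGD1564614, which RefSeq now names Cfhr4 and which belongs to a family of similar complement factor H-related genes, had 0.99 and 1.20 and carries the same doubt.

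The remaining agreeing regions were of varied roles. Gpr101, an orphan receptor, had low values, at partial hepatectomy 21, 23.5, 15.9, 18.4 and 22.1 in thioacetamide and 7.37, 18.9, 12.7, 7.63 and 9.40 in vehicle livers, where 1 vehicle library lay within the thioacetamide range. At terminal euthanasia it had 23.7, 15.4, 19.8, 12.5 and 19.97 in thioacetamide and 5.95, 4.75, 10.1, 2.31 and 11.4 in vehicle livers, and the groups did not overlap. Rpgrip1l, a protein of the ciliary transition zone, had 0.35 and 0.62, and Lrig2, a membrane protein with leucine-rich repeats, 0.77 and 0.99. Pate4 had 0.50 and 0.51, and LOC689081, a cystatin-like gene by its RefSeq symbol Cstdc2, had 0.91 and 1.05.

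**Figure D3:**
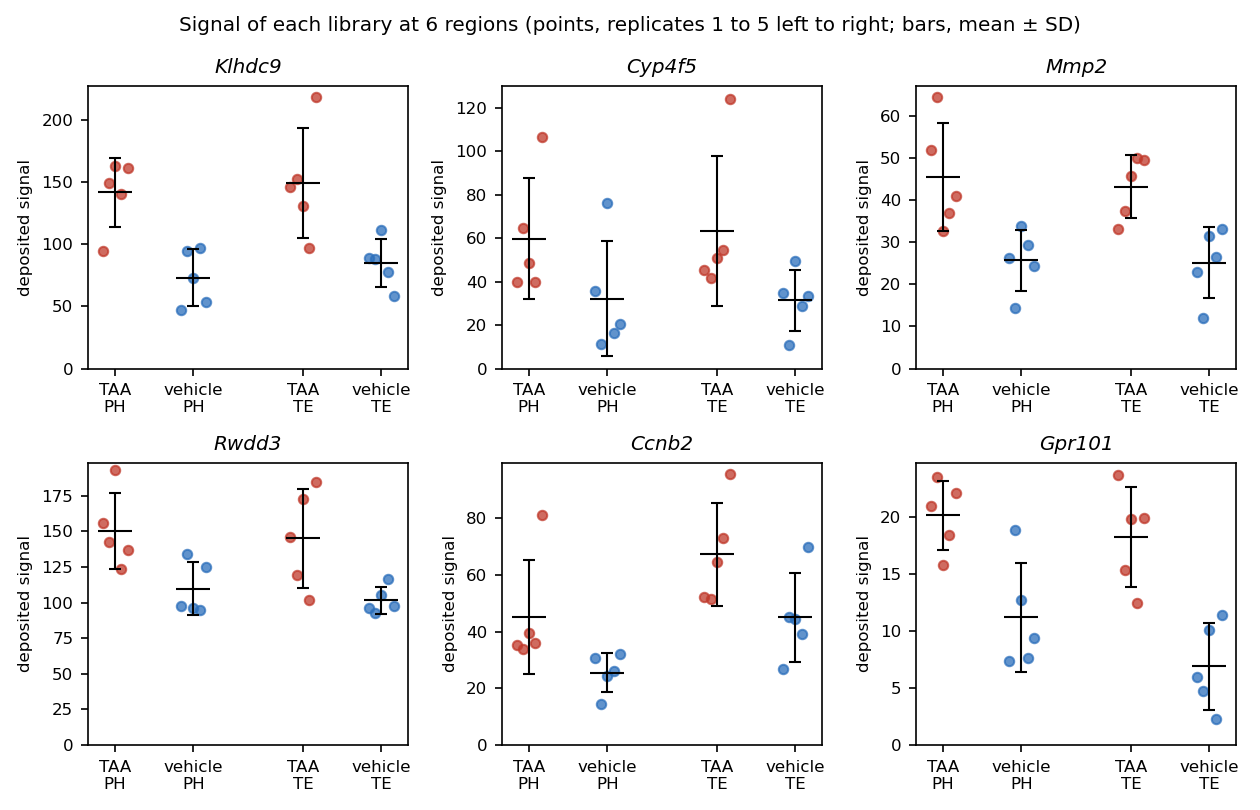
Deposited signal (vertical axes, from 0) of each library at Klhdc9, Cyp4f5, Mmp2, Rwdd3, Ccnb2 and Gpr101, for thioacetamide (TAA) and vehicle at partial hepatectomy (PH) and terminal euthanasia (TE). Points are replicates 1 to 5 and bars are the mean ± SD, and groups are separate for Ccnb2 at partial hepatectomy and for Mmp2 and Gpr101 at terminal euthanasia, and overlap in the other 9 pairs of groups.

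**Figure D4:**
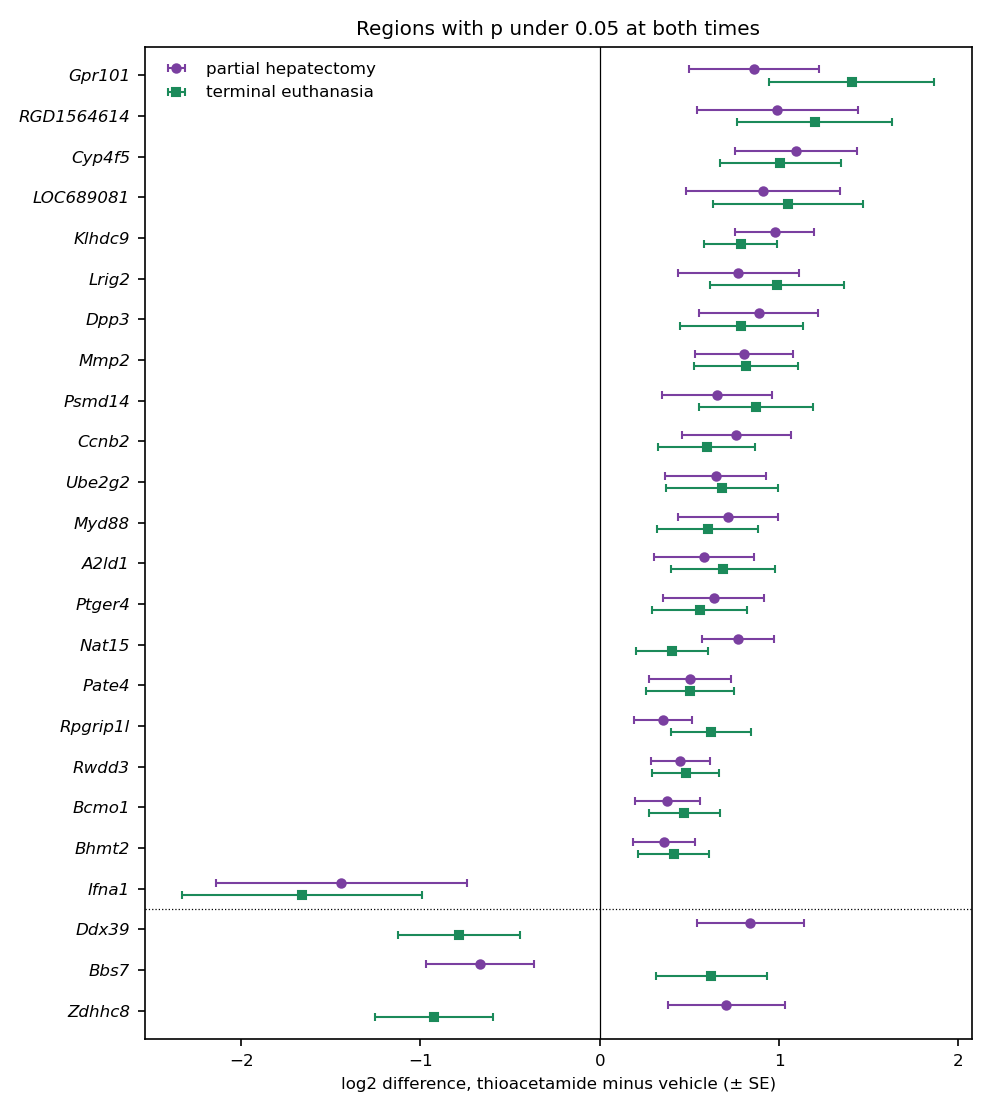
Log2 difference, thioacetamide minus vehicle (horizontal axis, ± SE), at partial hepatectomy (circles) and terminal euthanasia (squares) for 21 of the 23 regions that agreed and, below the dotted line, 3 of the 4 with opposite directions. Differences of the 20 higher regions shown run from 0.35 to 1.09 at partial hepatectomy and from 0.40 to 1.41 at terminal euthanasia.

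How far the set of agreeing regions depended on single libraries varied. Of 19 alternatives, Klhdc9 and Cyp4f5 stayed on it in 19, Mmp2 and Rwdd3 in 18, Gpr101 in 16 and Dpp3 in 15, and the other 17 regions in 7 to 17. Under quantile normalization 9 of the 23 stayed and with equal sums 13. Without thioacetamide replicate 5, 9 of the 23 stayed and 15 regions agreed in all. Of the regions named above, Rwdd3 (0.38), Nat15 (0.30), Ptger4 (0.45) and Ube2g2 (0.53) then missed an unadjusted 0.05 at terminal euthanasia. Lrig2 (0.59), LOC689081 (0.70), Rpgrip1l (0.27), Myd88 (0.57) and Ifna1 (-0.93) missed it at partial hepatectomy. Ccnb2 (0.53 and 0.46), Pate4 (0.42 and 0.40), Bcmo1 (0.30 and 0.35) and Bhmt2 (0.22 and 0.37) missed it at both times. Without every library with few empty regions 21 of the 23 stayed and 44 regions agreed. At partial hepatectomy this left out only libraries of other conditions, and the unadjusted list there went from 702 to 900 regions.

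The 4 regions with opposite directions included Zdhhc8, Ddx39 and Bbs7. Zdhhc8, a palmitoyltransferase, had 32, 53.2, 31.7, 27.6 and 60.03 in thioacetamide and 50.6, 20.003, 21.2, 15.3 and 21.6 in vehicle livers at partial hepatectomy. At terminal euthanasia it had 32.1, 18.7, 24.8, 25 and 29.4 in thioacetamide and 47.6, 40.4, 55.8, 69.2 and 40.1 in vehicle livers, with no overlap. The means were 40.9 in thioacetamide and 25.7 in vehicle livers at the first time, and 26 in thioacetamide and 50.6 in vehicle livers at the second. Ddx39, an RNA helicase, had differences of 0.84 and -0.78. Bbs7, a subunit of the ciliary BBSome, ran the other way, with -0.67 and 0.62. Without thioacetamide replicate 5, Zdhhc8 (0.55) missed an unadjusted 0.05 at partial hepatectomy and Bbs7 (-0.54 and 0.43) at both times. Ddx39 (0.76 and -1.13) stayed under it at both.

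The difference between the times was tested directly, as terminal euthanasia minus partial hepatectomy within replicate number. No region passed among 15740 (0%) by limma, and 462 had an unadjusted p under 0.05 (2.94%), 118 with a larger difference at terminal euthanasia (0.75%) and 344 with a smaller one (2.19%). The median was -0.058. Among better covered regions, with a mean signal above the median, Tmc5, a transmembrane channel-like gene, had the smallest p. It had 57.4, 76.7, 63.4, 40.5 and 86.4 in thioacetamide and 24.2, 44.5, 44.5, 38.2 and 43.3 in vehicle livers at partial hepatectomy. Later, at terminal euthanasia, it had 47.5, 42.8, 38.7, 52.8 and 68.3 in thioacetamide and 62.5, 57.1, 67.9, 76.1 and 61.8 in vehicle livers. The thioacetamide group was the higher at the first time and the lower at the second, with overlap at both, and the difference between the times was -1.10 ± 0.26 (SE), with an unadjusted p of 0.000148 and an adjusted p of 1.00 from limma.

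Pdgfrb, the receptor through which platelet-derived growth factor drives stellate cells, had a similar course. At partial hepatectomy it had 116, 100, 110, 125 and 147 in thioacetamide and 50.6, 88.9, 89.0, 72.0 and 72.4 in vehicle livers, with no overlap and a difference of 0.69 ± 0.18 (SE). At terminal euthanasia the means were 94.8 ± 20.4 in thioacetamide and 109 ± 34.4 in vehicle livers (SD, n = 5 each). The difference between the times was -0.86 ± 0.25 (SE), with an adjusted p of 1.00 from limma.

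Regions with the smallest p at 1 time, among better covered regions, were seldom under an unadjusted 0.05 at the other. Of the 8 with a higher signal at partial hepatectomy, 6 were also higher at terminal euthanasia, as were 56.6% of all regions. The 2 of them under an unadjusted 0.05 there were Klhdc9 and Nat15, against 1.33% of all regions under it and higher. The others included Xpnpep1, an aminopeptidase, with means of 127 ± 16.8 in thioacetamide and 84.5 ± 24 in vehicle livers at the first time, and of 118 ± 38.7 in thioacetamide and 94.3 ± 8.16 in vehicle livers at the second (SD, n = 5 each). Of the 8 with a lower signal at partial hepatectomy, 5 were lower at terminal euthanasia, where 56.6% of all regions were higher. Among them Atp5g1, a subunit of mitochondrial ATP synthase, had 57.4, 48.1, 48.6, 78.3 and 81.1 in thioacetamide and 107, 83.3, 86.9, 156 and 94.0 in vehicle livers at partial hepatectomy, with no overlap, and a difference of -0.06 at terminal euthanasia. The set also held Cd55, a complement inhibitor, and Egfl7, an endothelial matrix protein.

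Of the 8 regions with a higher signal at terminal euthanasia, all 8 had a positive difference at partial hepatectomy, as did 66.8% of all regions. Klhdc9 and Rpgrip1l were under an unadjusted 0.05 there, against 4.07% of all regions under it and higher. Synpo, an actin-binding protein, had 72.4, 96.6, 85.3, 83.6 and 122 in thioacetamide and 48.6, 42.8, 68.9, 40.3 and 56.1 in vehicle livers at terminal euthanasia, with no overlap. At partial hepatectomy its means were 75.1 ± 13.9 in thioacetamide and 69.8 ± 17.6 in vehicle livers (SD, n = 5 each). Esr1, the oestrogen receptor alpha gene, and Snx29, a sorting nexin, were in the same set. Of the 8 with a lower signal at terminal euthanasia, 4 were lower at partial hepatectomy, where 66.8% of all regions were higher. Among them Eno3, an enolase of glycolysis, had 74.8, 69.1, 57.6, 53.8 and 83.0 in thioacetamide and 144, 106, 93.3, 119 and 83.5 in vehicle livers at terminal euthanasia. The groups were separate by a narrow margin, and at partial hepatectomy the means were 96.2 ± 47.4 in thioacetamide and 105 ± 29 in vehicle livers (SD, n = 5 each).

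Wt1, a transcription factor gene on the tumour suppressor list, had the widest difference at partial hepatectomy among the named regions that had reads in every library. Its signal there was 33.1, 58.3, 27.7, 33.2 and 46.3 in thioacetamide and 9.48, 46.7, 7.42, 4.36 and 13.2 in vehicle livers. Vehicle replicate 2 lay within the thioacetamide range and the other 4 lay below it. The difference was 1.64 ± 0.38 (SE), with an adjusted p of 0.404 from limma. Without vehicle replicate 2 it was 2.12, with an adjusted p of 0.00287. At terminal euthanasia the means were 47.5 ± 15.7 in thioacetamide and 47.3 ± 18.6 in vehicle livers (SD, n = 5 each), a difference of 0.01.

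Among 15 gene lists for this tissue and agent, the genes of drug metabolism and of thioacetamide activation had the largest median difference. Of the 21 measured, 17 were higher in thioacetamide livers at partial hepatectomy, against 66.8% of all genes, and 14 at terminal euthanasia, against 56.9%. The medians were 0.27 and 0.21, against 0.08 and 0.04 over all genes. The median for the mean of both times was 0.23, and 0.15 under quantile normalization. Without the last block of library numbers, which holds thioacetamide replicate 5, the median was 0.26 at partial hepatectomy, against 0.03 over all genes. It was 0.09 at terminal euthanasia, against -0.05, and 0.17 for the mean, against -0.01. None of these genes passed. Cyp3a23/3a1, a pregnane X receptor target, had 45.2, 43, 43.6, 29.5 and 46.3 in thioacetamide and 24.2, 20.003, 14.8, 27.3 and 27.3 in vehicle livers at partial hepatectomy, with no overlap. At terminal euthanasia its means were 26.8 ± 9.38 in thioacetamide and 24.5 ± 18.6 in vehicle livers (SD, n = 5 each). Ahr, the dioxin receptor, had a difference of 0.15 at partial hepatectomy and 0.53 at terminal euthanasia. Fmo1 had 0.39 and 0.40, and Cyp2e1, which starts the activation of thioacetamide, had -0.12 and 0.26. These P450 and monooxygenase genes have close relatives, and shared reads may affect their values.

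The endothelial list was the one list with a negative median at both times, -0.05 and -0.09 over 12 genes. At the 2 times 5 and 3 of its genes were higher, against 66.8% and 56.9% of all genes. The list kept the sign of its medians under each scaling run. Without the last block of library numbers its medians were -0.14 and -0.18. The medians of the other 13 lists turned sign, at 1 time or in the mean, under at least 1 of the other scalings or sets of libraries tried, and no direction is given for them. Of the antioxidant and glutathione genes, 4 of 29 had an unadjusted p under 0.05 at partial hepatectomy, all higher (Gsr, Slc7a11, Gpx4 and Sod1), against 4.07% of all regions higher. At terminal euthanasia 0 of 29 had one, against 2.06% of all regions. In every list a gene was counted where any of its regions was under 0.05, while the shares are of regions. A gene with several regions, such as Gpx4 with 2, thus had more than 1 chance. Slc7a11, the cystine carrier that feeds glutathione synthesis, had 140, 122, 129, 141 and 224 in thioacetamide and 100, 100, 107, 72.0 and 145 in vehicle livers at partial hepatectomy. At terminal euthanasia its means were 125 ± 18.7 in thioacetamide and 122 ± 32.7 in vehicle livers (SD, n = 5 each). The groups overlapped at both times. Without thioacetamide replicate 5 its difference at partial hepatectomy was 0.37, against 0.52 with all libraries.

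Of the stellate cell and fibrosis genes, 4 of 36 had an unadjusted p under 0.05 at partial hepatectomy (Timp3, Mmp2, Pdgfra and Pdgfrb) and 2 of 37 at terminal euthanasia (Mmp2 and Dcn), all higher, against 4.07% and 1.33% of all regions higher. Mmp2 is also among the regions chosen above for agreeing at both times. Timp3, an inhibitor of matrix metalloproteinases, had 108, 95.2, 117, 126 and 115 in thioacetamide and 59, 91.1, 66.8, 76.3 and 80.9 in vehicle livers at partial hepatectomy, with no overlap. At terminal euthanasia the difference was 0.01. Of the hepatocyte genes, 3 of 28 had an unadjusted p under 0.05 and were higher at the first time (Ttr, Hpd and Hp), against 4.07% of all regions, and 1 of 28 was lower at the second (Tf), against 0.731%. Without thioacetamide replicate 5, Ttr (0.29), Hpd (0.55) and Hp (0.30) all missed an unadjusted 0.05 at partial hepatectomy. Dcn (0.27) then missed it at terminal euthanasia. With so few genes in a list, such counts are a description of these libraries. Macrophage, lymphocyte and preneoplastic focus lists had 0 such genes at either time, of 15, 21 and 16 measured. Over all regions the shares were 4.44% at partial hepatectomy and 2.06% at terminal euthanasia. In lists of this size 0 is near those shares.

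The remaining lists had few such genes. Of the receptors and ligands of the TGF-beta, Wnt and Notch pathways, 3 of 35 were under an unadjusted 0.05 at partial hepatectomy, all higher, and 0 of 36 at terminal euthanasia, against 4.07% of all regions higher at the first time and 2.06% in either direction at the second. They were Inhba, an activin subunit (0.56), Lef1, a Wnt effector with a low signal (1.62), and the receptor Notch2 (0.45), which is also on the biliary list. Of the cell cycle genes it was Ccnb2 at both times, 1 of 28 and 1 of 29. Of the 18 genes of DNA methylation it was Mat1a, which makes S-adenosylmethionine, at partial hepatectomy (0.72). At terminal euthanasia it was 1 region of Hells, a chromatin remodeller. The 29 imprinted genes had 1 region of Igf2 at the first time and Asb4 at the second (0.55). Tumour suppressors had Wt1 at the first time, 1 of 35, and Dlc1, a regulator of small GTPases, at the second (0.46), 1 of 36. Without thioacetamide replicate 5, Dlc1 (0.38) missed an unadjusted 0.05 at terminal euthanasia. The endothelial list had Flt4, a receptor for vascular endothelial growth factors, at partial hepatectomy (0.43), 1 of 12. At terminal euthanasia the Flt4 difference was -0.08. These counts of 1 a list stand against 4.44% of all regions at the first time and 2.06% at the second, and describe these libraries only. None of these genes passed.

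Of the other single genes followed, Gstp1, a marker of preneoplastic foci in rat liver, had means of 26.6 in thioacetamide and 24.9 in vehicle livers at partial hepatectomy and of 32.3 in thioacetamide and 30.8 in vehicle livers at terminal euthanasia. H19, an imprinted RNA gene, had 562 ± 54.3 in thioacetamide and 526 ± 112 in vehicle livers at partial hepatectomy (SD, n = 5 each), and its difference was 0.11 there and -0.05 at terminal euthanasia. Tbx3, a transcription factor gene, was lower in thioacetamide livers at partial hepatectomy, with 124, 141, 94.1, 137 and 172 against 220, 178, 191, 152 and 179 in vehicle livers. The groups overlapped by 1 thioacetamide library, and the difference was -0.47 ± 0.20 (SE), with an adjusted p of 1.00 from limma. At terminal euthanasia it was -0.12.

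**Figure D5:**
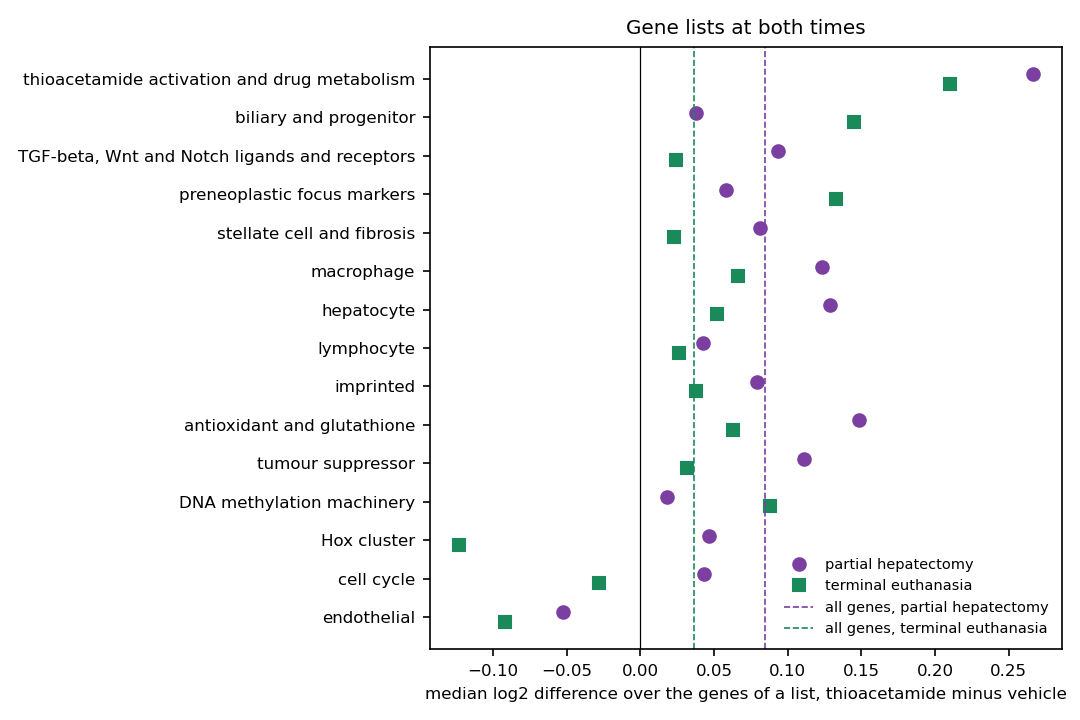
Median log2 difference, thioacetamide minus vehicle (horizontal axis), over the genes of each of 15 lists at partial hepatectomy (circles) and terminal euthanasia (squares), with the medians of all genes as dashed lines. The drug metabolism list lies at 0.27 and 0.21 and the endothelial list at -0.05 and -0.09.

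The authors' deposited table gives a p-value for the same comparison at each time. It lists 734 of 17089 regions under 0.05 at partial hepatectomy (4.3%) and 396 of 17104 at terminal euthanasia (2.32%). By the authors' deposited table, 17 regions were under 0.05 at both times in the same direction and 4 in opposite directions. Of those 17, 4 were among the 23 regions above: Klhdc9, Mmp2, Psmd14 and Gpr101. For Klhdc9 the authors' deposited table gives 0.00295 at partial hepatectomy and 0.0389 at terminal euthanasia.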

How the data were processed

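The deposited tables hold, for each library, a signal per region of 5625 bp around a transcript start, scaled by the authors to library size, and the authors' p-value for each treatment against vehicle. Liver DNA was enriched with a methyl-CpG binding domain protein (MethylMiner) and sequenced on a SOLiD 4, per the labels' protocols. No source used here names the aligner, the caller or the genome build. Signal times the scaling total in M reads over 50 gave whole numbers of reads within 0.01 for 100% of values, and 0.01 stands for no read. Depth and counting error limit low regions.

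Tests used limma 3.58.1 in R 4.3.3 on log2(signal + 1) with a trended prior over all 7 conditions of a time, on regions with a value of 10 or more in at least 5 libraries. P-values were adjusted by Benjamini and Hochberg over all tested regions. For results over both times, log2 values were averaged, or subtracted, within condition and replicate number, which leaves 5 values a condition. The labels say the livers of 5 rats were used per group. Regions named are those past the threshold, those with the smallest p among better covered regions (up to 8 per direction at each time and for the mean, 4 for the difference between times), up to 3 genes of each list, and a few genes named singly. The regions under 0.05 at both times were named as well. These members, lists and tests were chosen with earlier results of these data known. The limma fits were tested on simulated data. Replicate numbers did not pair thioacetamide with vehicle libraries. Promoters are from RefSeq (GRCr8). Some named regions are not reported here.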

Additional observations from a re-analysis of the deposited data

Results flagged for a closer look

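Among the named regions, 34 of 448 groups of 5 libraries (7.59%) held a library whose gap to the next was wide for the range of its group by Dixon's test, where about 1 in 20 is flagged by chance. In 7 of them the library was thioacetamide replicate 5, each time the highest.

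In thioacetamide livers at partial hepatectomy, replicate 5 was far above the rest at H19 (657), Flt1 (86.4), Bcmo1 (185), Slc7a11 (224) and Ccnb2 (81.1). Replicate 2 was high at RGD1564614 (29.7) and at Pcna (139), a replication clamp, and low at Cd55 (44). Replicate 4 was low at Cyp3a23/3a1 (29.5) and replicate 1 at Cd28 (65.1), a T cell receptor.

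In vehicle livers at partial hepatectomy, replicate 2 was high at Flt1 (85.6), Psmd14 (38.9) and Wt1 (46.7). Replicate 4 was high at Slc22a3 (69.8), an organic cation carrier, and at Myh1 (123), a muscle myosin. Replicate 1 was high at Eno3 (157) and Zdhhc8 (50.6), and replicate 5 at Flt4 (193).

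In thioacetamide livers at terminal euthanasia, replicate 5 was high at Atp5g1 (141) and Cyp4f5 (124), and replicate 3 was low at Rpgrip1l (73.4). Replicate 4, one of the libraries with few empty regions, was high at Hoxb13 (38.4), Hoxa10 (69.1) and 2 overlapping regions of the imprinted gene Rasgrf1 (34.6 and 33.6).

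In vehicle livers at terminal euthanasia, replicate 5, also a library with few empty regions, was high at the same 3 genes. They were Hoxb13 (80.1), Hoxa10 (77.8) and Rasgrf1 (51.5 and 51.5). Replicate 5 was also high at Lef1 (77.8) and Wt1 (80.1). It was low at Slc7a11 (64.1) and Bhmt2 (84.7). Replicate 1 was high at Bbs7 (40.6).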

How the results depend on the processing

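Leaving aside Klhdc9 for the mean of both times, 3382 values were recomputed for 178 results on single regions. Of these, 3365 kept their direction and their side of the threshold, 1 newly passed (Wt1 at partial hepatectomy without vehicle replicate 2) and 16 reversed, all small differences for the mean of both times. Cyp2e1 was -0.033 without thioacetamide replicate 5 or the last block. H19 was -0.0050 with quantile normalization, -0.012 with equal sums, -0.045 without thioacetamide replicate 5 or the last block, and -0.077 without vehicle replicate 5. Gstp1 was -0.0056 with quantile normalization, -0.018 with equal sums and -0.019 without thioacetamide replicate 5 or the last block. Gstp1 was also -0.0099 without vehicle replicate 4 and -0.0080 without every library with few empty regions. Prom1 was 0.0088, 0.0056 and 0.0066 without thioacetamide replicate 2, thioacetamide replicate 3 and vehicle replicate 2. Leaving out each replicate gave 0 to 1 calls at partial hepatectomy (Wt1, without vehicle replicate 2), 0 to 1 for the mean of both times, 15 to 41 agreeing regions and a Klhdc9 difference of 0.77 to 0.95. The mean gave 0 calls without every library with few empty regions (Klhdc9 0.84) and 0 without the last block (0.78). Agreeing regions numbered 15 with library-number blocks as a covariate and 44 without every library with few empty regions. With the replicate block they numbered 25, and the mean kept 1 call, Klhdc9, with an adjusted p of 0.00679 from limma. The planned tests on counts were not run. Over the libraries left out, these 4 differences ranged from -0.033 to 0.182, -0.077 to 0.125, -0.019 to 0.093 and -0.150 to 0.0088. The cause of these changes was not tested.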
